A study of Mus musculus with 8 samples.

Results

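The class II major histocompatibility complex (MHC) genes H2-Aa, H2-Ab1, H2-Eb1, H2-DMa, Cd74 and Ciita were followed in T cells sorted from the kidney and the spleen of lupus-prone mice. They are 6 of the 13341 genes in the deposited expression table and were chosen by name, with earlier results of these data known. The 8 RNA sequencing libraries fell into 4 groups of 2: kidney CD8+, spleen CD8+, kidney CD4+ and spleen CD4+ T cells. All of them came from MRL/lpr mice 14 weeks old and were sorted as CD44hi, the surface phenotype of T cells that have met antigen. MRL/lpr is an autoimmune strain in which the lpr mutation disables the death receptor gene Fas, so every group carries it and no group is a healthy control. The labels do not say whether the libraries of a group came from separate mice or how many mice were pooled, so the p-values below measure the spread between these libraries, which may be technical.

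Class II molecules carry peptides from ingested protein to the cell surface, where the receptor of a CD4+ T cell reads them. Dendritic cells, macrophages and B cells are their usual sources, and mouse T cells are generally held to make little of their own. In a presenting cell the alpha and beta chains assemble on the invariant chain encoded by Cd74, the DM complex loads the peptide, and the coactivator encoded by Ciita switches the whole set on. The kidney in lupus nephritis is infiltrated both by T cells and by macrophages and dendritic cells. In bulk RNA, more cells of a type and more RNA per cell cannot be told apart.

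The level is the normalised read count of the deposited table. Between 7477544 and 11169003 reads per library were assigned to genes, and 10544 to 12103 genes had at least 1 read. Cd4 ranged from 0 to 17.8 in the 4 CD8+ libraries and from 1365 to 2224 in the 4 CD4+ libraries, while Cd8b1 ranged from 13255 to 17552 in CD8+ and from 43.7 to 110 in CD4+ libraries. The lineage labels and the transcripts matched. The kidney CD4+ pair stood apart from the other pairs: the log2 difference between its replicates had an SD of 1.47 over well-expressed genes, against 0.379 to 0.547 within the other groups, and the CD3 genes split in both directions: Cd3e was at 5456 in replicate 1 and 637 in replicate 2, Cd3d at 10077 and 26729, and Cd3g at 24538 and 48406. Results that rest on 1 of those libraries are given with and without it. A fit without it keeps 1 kidney CD4+ library, so its p-values and calls do not measure the spread of that group.

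The genes H2-Aa, H2-Ab1, H2-Eb1 and H2-DMa lie in the MHC on chromosome 17, and the annotation for the mm9 build lists each member as protein coding. H2-Aa spans chr17:34406276-34424772 on the minus strand, H2-Ab1 chr17:34400154-34406363 on the plus strand, H2-Eb1 chr17:34442828-34453144 on the plus strand and H2-DMa chr17:34272127-34276046 on the plus strand. Cd74 and Ciita lie on other chromosomes. The 3′ end of H2-Ab1 overlaps H2-Aa by 88 bases on the opposite strand, and the library kit does not mark strand, so reads there cannot be assigned to 1 of the pair by strand. MRL mice carry the k haplotype of this complex and the reference genome the b haplotype. Whether reads from the k alleles were lost in alignment was not tested, and it would touch all 4 groups.

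Class II promoters share an X box, bound by the RFX complex, and a downstream Y box, bound by NF-Y, on which the Ciita protein docks. RefSeq promoter windows were given for 3 of the 6 members. They are printed for H2-Aa and H2-Eb1, an alpha and a beta chain gene that were higher in kidney, to show how closely the layout is shared between them. Each shows the 130 bases before the annotated start, read 5′ to 3′ on the gene's own strand, in build GRCm38.p6, at chr17:34287824-34287953 (minus strand) and chr17:34305737-34305866 (plus strand). The capitals mark GCAACT, core letters of the X box, and CTGATTGG, the Y box.
H2-Aa: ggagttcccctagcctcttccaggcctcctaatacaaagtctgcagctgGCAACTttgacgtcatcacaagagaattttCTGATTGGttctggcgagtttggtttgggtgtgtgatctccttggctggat
H2-Eb1: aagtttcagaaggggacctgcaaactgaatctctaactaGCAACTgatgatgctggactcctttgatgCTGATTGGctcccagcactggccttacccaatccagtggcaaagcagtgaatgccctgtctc
The letters between the capitals number 24 in H2-Aa and 23 in H2-Eb1. Both motifs were spelled after these promoters had been read, so their presence is a description. Among 32851 promoter windows of 250 bases, searched on either strand, CTGATTGG was found in 3.83% and GCAACT in 9.01%. GCAACT followed within 50 bases by CTGATTGG was found in 10 windows, or 0.0304%, among them H2-Aa, H2-Eb1 and their relative H2-Eb2. Neither motif was found in the windows listed for H2-DMa, but those windows do not lie at the annotated start of the gene, so they say nothing of the letters there. Other class II genes had windows at their annotated start without the full layout. H2-DMb1 and H2-Ob had neither motif, and H2-Oa had CTGATTGG without GCAACT.

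**Figure D1:**
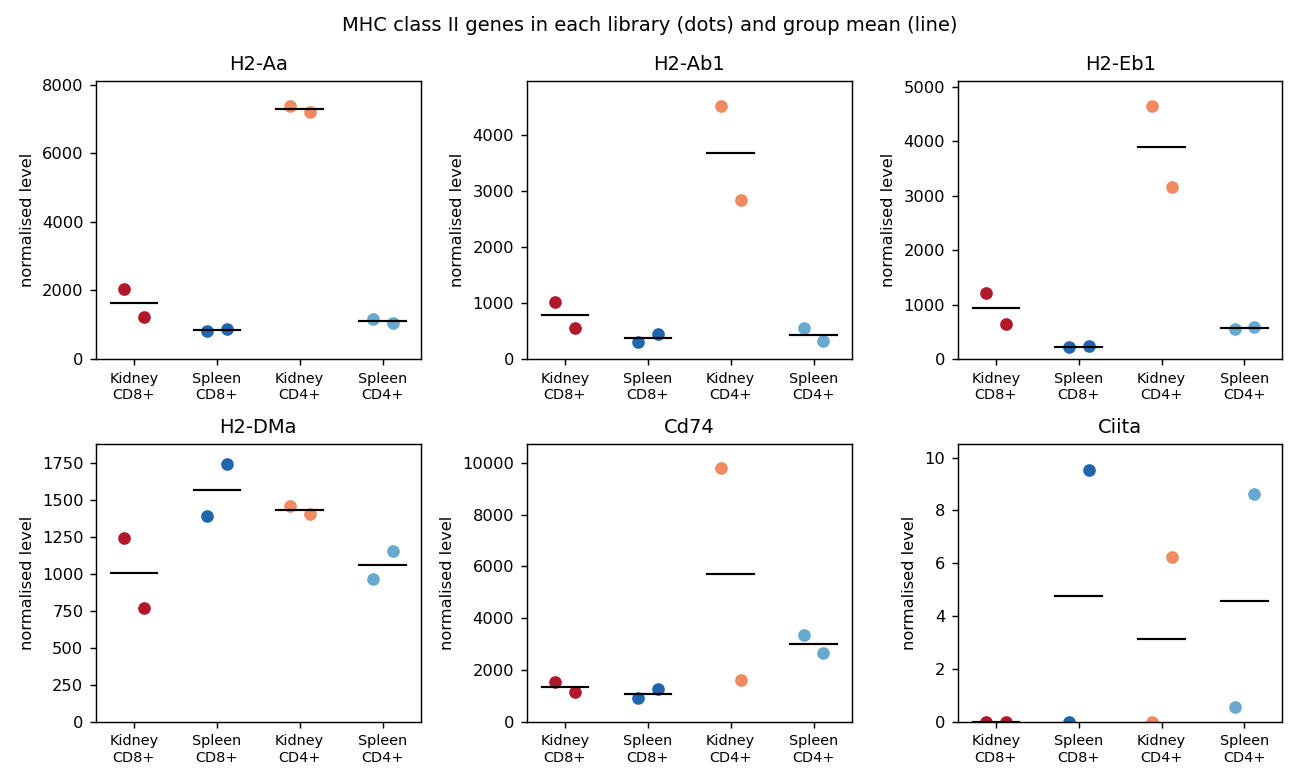
Normalised level (vertical axes, linear, from 0) of each class II gene in each of the 8 libraries, by group, with dots for libraries and a line for the group mean. The 3 chain genes H2-Aa, H2-Ab1 and H2-Eb1 are highest in both kidney CD4+ libraries, Cd74 is split between the kidney CD4+ libraries, and Ciita stays below 10 everywhere.

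H2-Aa, H2-Ab1 and H2-Eb1, which encode the alpha chain of the A molecule, its beta chain and the beta chain of the E molecule, were 6.57, 8.44 and 6.81 times as high in kidney CD4+ as in spleen CD4+ T cells by group means. H2-Aa stood at 7394 and 7219.6 in kidney CD4+ libraries, against 1177 and 1047 in spleen CD4+ libraries. H2-Ab1 stood at 4507 and 2835 in kidney CD4+ libraries, against 553 and 317 in spleen CD4+ libraries. H2-Eb1 stood at 4639.8 and 3158 in kidney CD4+ libraries, against 553 and 592 in spleen CD4+ libraries. For all 3 genes the kidney and spleen libraries of CD4+ cells did not overlap, as for 16.3% of tested genes in this direction. The log2 fold changes were 2.72 ± 0.36 (SE) for H2-Aa, 3.09 ± 0.47 for H2-Ab1 and 2.74 ± 0.40 for H2-Eb1. The adjusted p of limma's moderated test (Benjamini-Hochberg method over the 10845 tested genes) was 0.0128, 0.0241 and 0.0197 in the same order.

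Of the 6 members 5 passed the filter on low levels, and 3 of those 5 rose in kidney CD4+ cells, where 0.802% of all tested genes were called higher and 0.157% lower. The median log2 fold change of the 5 was 2.72, beside -0.08 over all tested genes. The calls leaned on the spread that all 4 groups share. None of the 3 stayed below 0.05 when the CD4+ groups were fitted alone (adjusted p = 0.173 for each), or when any 1 spleen library was left out: H2-Aa then ranged from 0.0546 to 0.201, although its fold change stayed between 2.63 and 2.80.

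H2-DMa and Cd74 did not pass the test in the same comparison. H2-DMa encodes the alpha chain of DM, the endosomal chaperone that exchanges peptides on class II molecules. It stood at 1458 and 1405 in kidney CD4+ libraries, against 964 and 1153 in spleen CD4+ libraries, with no overlap and a log2 difference of 0.44 ± 0.36 (limma adjusted p = 0.787). Cd74 encodes the invariant chain, which blocks the groove of new class II molecules and routes them to endosomes. Its level was 9785 in kidney CD4+ replicate 1 and 1627 in replicate 2, against 3369 and 2646 in spleen CD4+ libraries. The kidney CD4+ libraries thus lay on either side of the spleen pair. The pooled log2 difference was 0.42 ± 0.72 (limma adjusted p = 0.920). It was 1.71 without kidney CD4+ replicate 2 and -0.87 without replicate 1, so the sign of Cd74 was set by which kidney CD4+ library was kept. Each of these fits had 1 kidney CD4+ library, so the spread came from the other groups.

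In CD8+ cells the same chain genes were higher in both kidney libraries than in both spleen libraries, by smaller factors, and none passed the test. H2-Eb1 stood at 1216 and 641 in kidney CD8+ libraries, against 222 and 231 in spleen CD8+ libraries. H2-Aa stood at 2041 and 1213 in kidney CD8+ libraries, against 815 and 889 in spleen CD8+ libraries. H2-Ab1 stood at 1013 and 544 in kidney CD8+ libraries, against 304 and 453 in spleen CD8+ libraries. The CD8+ kidney and spleen libraries of these 3 genes did not overlap, which held for 26.7% of tested genes in this direction. The log2 differences were 1.96 ± 0.40 for H2-Eb1, 0.89 ± 0.36 for H2-Aa and 1.0 ± 0.47 for H2-Ab1, with limma adjusted p = 0.0614, 0.419 and 0.520 in the same order.

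None of the 5 tested members was called in CD8+ cells, where 1.21% of all tested genes were called higher and 0.341% lower. The unadjusted limma p was 0.00106 for H2-Eb1 and 0.0366 for H2-Aa, and 10.6% of all tested genes had one below 0.05. edgeR also called 0 of them, with 99 genes called in all, and DESeq2 called 1, H2-Eb1, among 492 genes in all. H2-Eb1 was also called without either kidney CD4+ library (adjusted p = 0.00403 without replicate 1 and 0.00468 without replicate 2), in fits that called 755 and 754 genes in all, against 168 with all libraries. H2-DMa ran the other way in CD8+ cells, at 1243 and 770.1 in kidney CD8+ libraries, against 1391 and 1744 in spleen CD8+ libraries, again without overlap (24.4% of tested genes in this direction). That difference of -0.67 ± 0.36 on the log2 scale did not pass (limma adjusted p = 0.578). Cd74 stood at 1519 and 1134 in kidney CD8+ libraries, against 931 and 1249 in spleen CD8+ libraries, and the 2 organs overlapped.

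**Figure D2:**
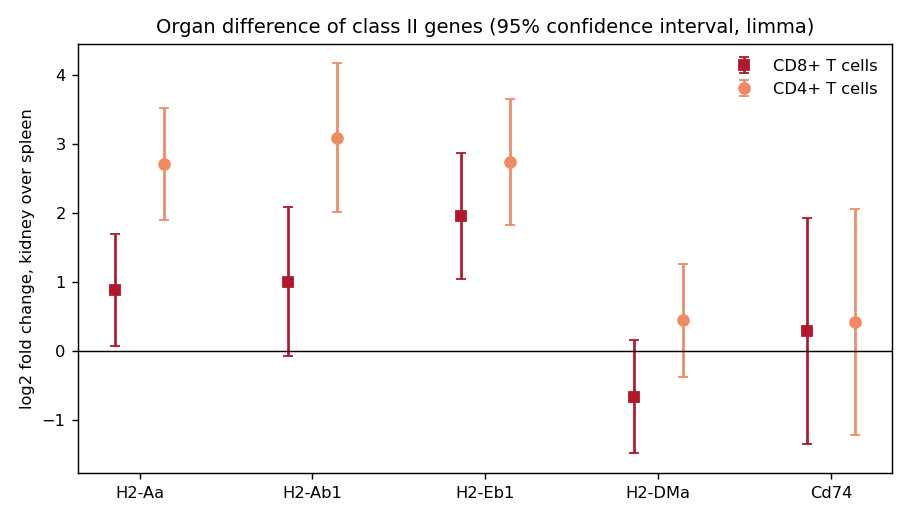
Log2 fold change of kidney over spleen (vertical axis) for the 5 tested class II genes, in CD8+ (squares) and CD4+ (circles) T cells, with 95% confidence intervals from limma. The intervals of H2-Aa, H2-Ab1 and H2-Eb1 in CD4+ cells lie above 0, with lower ends from 1.82 to 2.01, and the intervals of Cd74 span 0 in both cell types.

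Averaged over both lineages, the 3 chain genes rose in kidney and H2-DMa and Cd74 did not pass. The mean log2 difference was 2.35 ± 0.28 for H2-Eb1 (limma adjusted p = 0.00313), 1.80 ± 0.25 for H2-Aa (0.00593) and 2.05 ± 0.33 for H2-Ab1 (0.0127). The 3 of 5 tested members called higher stand beside 2.71% of all tested genes called higher and 0.664% called lower in this comparison. The 4 kidney libraries did not overlap the 4 spleen libraries for H2-Aa and H2-Eb1, as for 5.84% of tested genes in this direction. H2-Ab1 overlapped, since its lower kidney CD8+ library was at 544 and its higher spleen CD4+ library at 553. H2-Eb1 was called under each of the 15 alternatives run for this average. H2-Aa fell short without spleen CD8+ replicate 1 (adjusted p = 0.0596) and without spleen CD4+ replicate 2 (0.0615), and H2-Ab1 also fell short without kidney CD8+ replicate 1 (0.0712) or any of spleen CD8+ replicate 1 (0.0947), spleen CD8+ replicate 2 (0.0522) and spleen CD4+ replicate 2 (0.0951).

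In the kidney, class II levels of the CD8+ libraries lay below those of the CD4+ libraries, without a call. All 5 tested members were lower in both kidney CD8+ libraries than in both kidney CD4+ libraries, a trait of 14.1% of tested genes. The log2 differences were -2.21 ± 0.36 for H2-Aa (limma adjusted p = 0.0705), -2.27 ± 0.47 for H2-Ab1 (0.152), -2.11 ± 0.40 for H2-Eb1 (0.111), -0.55 ± 0.36 for H2-DMa (0.740) and -1.60 ± 0.72 for Cd74 (0.605). None was called, beside 0.12% of all tested genes called higher and 0.083% lower. The unadjusted limma p was below 0.05 for the 3 chain genes (0.000205, 0.00118 and 0.000639 in the order H2-Aa, H2-Ab1, H2-Eb1), as for 8.51% of all tested genes. edgeR called 0 members, and DESeq2 called 3 among 216 genes in all. Without kidney CD4+ replicate 1 the log2 difference of H2-Aa was -2.20, and without replicate 2 it was -2.23. That of Cd74 was -2.90 without replicate 2 and reached -0.31 over the alternatives. Fits with 1 kidney CD4+ library took their spread from the other groups.

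In the spleen the gap between the lineages differed by gene. H2-Eb1, Cd74 and H2-Aa were lower in both CD8+ libraries than in both CD4+ libraries, as were 26% of tested genes. Their log2 differences were -1.33 ± 0.40 (limma adjusted p = 0.369), -1.47 ± 0.72 (0.869) and -0.38 ± 0.36 (1) in that order. H2-DMa was higher in both CD8+ libraries, as were 19.8% of tested genes, with a difference of 0.56 ± 0.36 (1). H2-Ab1 overlapped, with a difference of -0.17 ± 0.47 (1). None was called, beside 0.129% of all tested genes called higher and 0.231% lower. The unadjusted limma p was below 0.05 for H2-Eb1 (0.00987), as for 6.43% of all tested genes, and edgeR and DESeq2 called 0 members. H2-Eb1 and Cd74 were called lower in spleen CD8+ cells without either kidney CD4+ library, with adjusted p from 0.0372 to 0.0417 for H2-Eb1 and from 0.00809 to 0.00842 for Cd74. The calls over all genes were 349 without replicate 1 and 327 without replicate 2, against 39 with all libraries.

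The organ difference itself was not shown to differ between the lineages. The CD8+ difference minus the CD4+ difference was -1.83 ± 0.51 for H2-Aa, -2.09 ± 0.67 for H2-Ab1, -0.78 ± 0.57 for H2-Eb1, -1.11 ± 0.51 for H2-DMa and -0.14 ± 1.02 for Cd74, all with limma adjusted p = 0.999. No gene of the table passed this test (0%), while 362 genes, or 3.34%, had an unadjusted p below 0.05. H2-Aa (0.00612) and H2-Ab1 (0.0132) were among them. edgeR called 0 genes and DESeq2 12, none of them a member. Without kidney CD4+ replicate 1 the difference of H2-Aa was -1.81, in a fit with 1 kidney CD4+ library.

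Ciita, the master coactivator of class II transcription, was at or near the limit of detection in every library. It had 0 reads in both kidney CD8+ libraries, 0 and 10 reads in spleen CD8+ replicates 1 and 2, 0 and 6 reads in kidney CD4+ replicates 1 and 2, and 1 and 10 reads in spleen CD4+ replicates 1 and 2. Its highest level was 9.55, in spleen CD8+ replicate 2, so it was never at the level of 10 that a gene needed to be tested. With 0 reads in the kidney CD8+ libraries, levels up to 2.55 and 2.31 (3 reads, counting error only) were still possible there. A difference in Ciita between organs was not detectable at this depth. Per kilobase of transcript, Ciita was at 0 and 1.21 in the kidney CD4+ libraries in which H2-Aa was at 6532 and 6378.

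Divided by transcript length, to compare genes with each other, the order of the members changed from group to group. In kidney CD4+ cells H2-Aa led with 6455 ± 109 per kilobase (SD, n = 2 libraries in each group), followed by Cd74 (4047 ± 4091), H2-Eb1 (3310 ± 889), H2-Ab1 (3031 ± 977) and H2-DMa (921 ± 24.3). The Cd74 libraries there, at 6939.7 and 1154 per kilobase, lay on either side of all 3 chain genes. H2-Eb1 and H2-Ab1 overlapped between libraries, although H2-Eb1 was the higher within each, and H2-DMa was below the others in both libraries. In spleen CD4+ cells Cd74 led with 2133 ± 362 per kilobase, ahead of H2-Aa (983 ± 81.1), H2-DMa (680 ± 85.8), H2-Eb1 (486 ± 23.2) and H2-Ab1 (359 ± 138). Of these neighbours, H2-Eb1 and H2-Ab1 differed by less than the SD of H2-Ab1, although H2-Eb1 was the higher within each library.

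The CD8+ groups had a flatter order. In kidney CD8+ cells the per-kilobase means were 1437 ± 518 for H2-Aa, 941 ± 193 for Cd74, 788 ± 345 for H2-Eb1, 647 ± 215 for H2-DMa and 643 ± 274 for H2-Ab1, and each gene overlapped the next. Within each of these libraries, however, the order H2-Aa, Cd74, H2-Eb1, H2-DMa was the same, and only the place of H2-Ab1 changed. In spleen CD8+ cells H2-DMa led with 1008 ± 160 per kilobase, ahead of Cd74 (773 ± 160), H2-Aa (753 ± 46.4), H2-Ab1 (312 ± 87.0) and H2-Eb1 (192 ± 5.33). There H2-DMa was above Cd74 in both libraries by a narrow margin, at 895 and 1121 per kilobase against 660 and 886, and Cd74 overlapped H2-Aa.

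Relative to H2-Aa of the same library, the members did not keep 1 proportion. These ratios are of levels not divided by length, and are compared between libraries only. The level of H2-Ab1 was between 0.302 and 0.610 of that of H2-Aa in all 8 libraries, and its groups overlapped. H2-Eb1 was at 0.596 and 0.529 of H2-Aa in kidney CD8+ libraries, against 0.273 and 0.260 in spleen CD8+ libraries, while in CD4+ cells it was at 0.627 and 0.437 in kidney and 0.470 and 0.565 in spleen libraries. The H2-DMa ratio separated all 4 groups, and how many other genes would do so was not counted. H2-DMa itself ran from 770 to 1744 and H2-Aa from 815 to 7394, so much of the range of this ratio came from H2-Aa. The ratio was 0.609 and 0.635 in kidney CD8+, 1.71 and 1.96 in spleen CD8+, 0.197 and 0.195 in kidney CD4+ and 0.819 and 1.10 in spleen CD4+ libraries. Cd74 was at 0.744 and 0.935 of H2-Aa in kidney CD8+ libraries, against 1.14 and 1.40 in spleen CD8+ libraries, and at 1.32 and 0.225 in kidney CD4+ libraries, against 2.86 and 2.53 in spleen CD4+ libraries. Both ratios were thus lower in kidney than in spleen libraries of the same lineage.

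**Figure D3:**
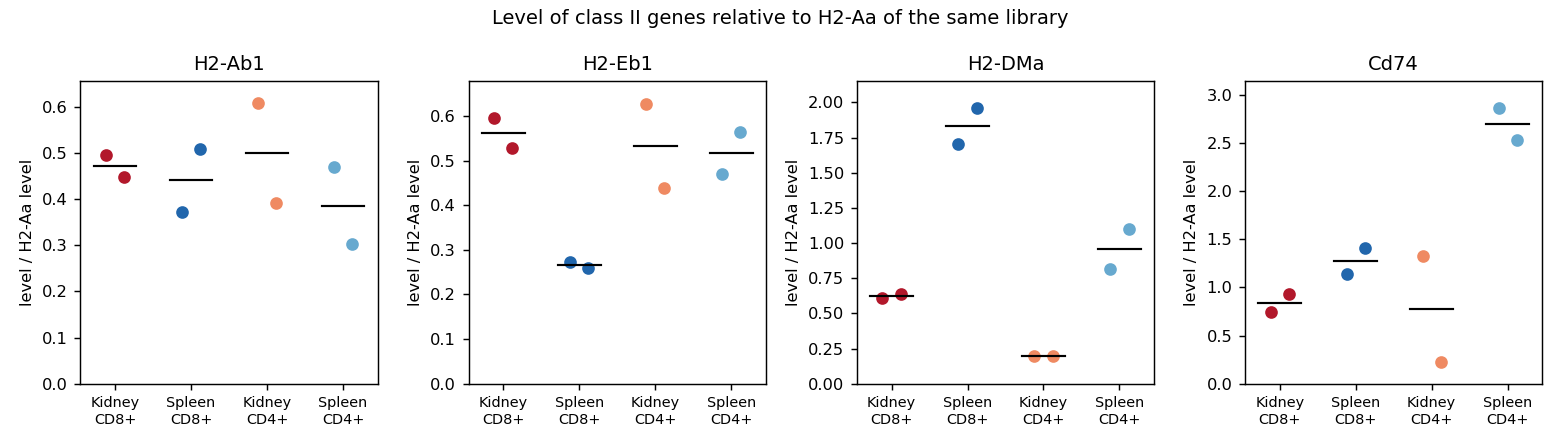
Level of H2-Ab1, H2-Eb1, H2-DMa and Cd74 divided by that of H2-Aa in the same library (vertical axes, from 0), by group, with dots for libraries and a line for the group mean. H2-Ab1 keeps a similar ratio in all groups, while H2-DMa runs from 0.195 in a kidney CD4+ library to 1.96 in a spleen CD8+ library.

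Genes whose proteins work beside the members showed few calls. Of the 5 tested partner subunits, none passed in any organ comparison, with a median log2 difference of 0.54 in the average of both lineages. H2-DMb1, a beta chain of DM, ranged from 107 to 218 in the 4 kidney libraries, against 47.8 to 78.5 in the 4 spleen libraries. Those ranges did not overlap, as for 5.84% of tested genes in this direction, and the log2 difference was 1.03 ± 0.35 (limma adjusted p = 0.223). H2-Oa, the alpha chain of the DM inhibitor DO, differed by -0.71 ± 0.24 (0.210), and H2-DMb2, the other DM beta chain gene, by 0.54 ± 0.51 (0.669). H2-Ea-ps, the reference strain's inactive copy of the E alpha chain gene, stood at 234 and 102 in kidney CD4+ libraries, against 32.7 and 39.7 in spleen CD4+ libraries. Its averaged difference was 1.34 ± 0.47 (limma adjusted p = 0.229).

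The endosomal and regulatory genes likewise gave no call in the average of both lineages. Of 9 tested antigen processing genes none was called, at a median log2 difference of -0.16. Those with the smallest p were Lamp1, a lysosomal membrane protein (0.74 ± 0.30, limma adjusted p = 0.308), and Ifi30, a lysosomal thiol reductase (1.24 ± 0.57, 0.383). Of 11 tested regulators of class II transcription none was called, at a median of 0.05. Irf4, a transcription factor of activated lymphocytes, differed by 1.46 ± 0.36 (0.0777), Prdm1, a repressor of Ciita, by 1.09 ± 0.45 (0.313), and Rfxap, an RFX subunit, by 1.15 ± 0.60 (0.443). Of 8 genes of the interferon gamma route, the main inducer of Ciita in other cells, none was called, at a median of 0.15. Ifng itself stood at 13296 and 9958 in kidney CD8+ libraries, against 4023 and 3522 in spleen CD8+ libraries, and at 4545 and 5586 in kidney CD4+ libraries, against 3275 and 3582 in spleen CD4+ libraries. Every kidney library was above every spleen library for Ifng, as for 5.84% of tested genes, with a log2 difference of 1.08 ± 0.25 (limma adjusted p = 0.0575).

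Among these lists Cd86 and Cd63 rose in kidney. Cd86, the ligand through which presenting cells costimulate CD28 and which activated T cells can also carry, stood at 479 and 358 in kidney CD8+ libraries, against 119 and 141 in spleen CD8+ libraries. In CD4+ cells it stood at 572 and 341 in kidney libraries, against 208 and 158 in spleen libraries. Its log2 difference averaged 1.47 ± 0.29 (limma adjusted p = 0.0317), and it was the 1 of 5 tested costimulatory genes that passed. Cd63, a tetraspanin of the endosomes where class II is loaded, had group means of 427 in kidney and 36.2 in spleen libraries and a log2 difference of 3.46 ± 0.60 (0.0169). It was the 1 called of 3 tested genes of class II turnover. Of all tested genes, 2.71% were called higher and 0.664% lower in the average of both lineages. Cd9, another tetraspanin, did not pass between organs but was lower in CD8+ than in CD4+ cells, by -2.83 ± 0.31 in kidney (limma adjusted p = 0.0115) and by -2.07 ± 0.31 in spleen (0.0417). The class I pathway, which presents peptides on nearly every cell, had 0 of 13 tested genes called in the average, at a median of -0.28. The smallest p there was that of Nlrc5, the class I counterpart of Ciita (-0.36 ± 0.35, 0.674).

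Transcripts of other cell types were present and were set beside the class II levels. Of 23 macrophage and monocyte markers, 22 were in the table and 19 tested. Their summed level was 3994 and 3180 in kidney CD8+ libraries, 1539 and 2392 in spleen CD8+ libraries, 9266 and 9449 in kidney CD4+ libraries and 2471 and 2883 in spleen CD4+ libraries. The kidney CD4+ libraries were highest for this sum, as they were for the summed level of the 6 members (27785 and 16251, against 6616 and 5763 in spleen CD4+ libraries). In the average of both lineages, 6 of the 19 rose and none fell, beside 2.71% of all tested genes called higher and 0.664% lower. The 6 were C1qa, C1qb and C1qc, the subunits of complement C1q, Apoe, Ms4a7 and Aif1. Of the 19 log2 differences, 16 were above 0 and 3 below. Cd68 stood at 258 and 485 in kidney CD4+ libraries, against 559 and 518 in spleen CD4+ libraries. In CD8+ cells Cd68 stood at 485 and 389 in kidney libraries, against 345 and 370 in spleen libraries. Ccr2 ranged from 781 to 1123 in the 4 kidney libraries, against 405 to 593 in the 4 spleen libraries. Its group means were alike in kidney CD8+ (1029) and kidney CD4+ libraries (952), whereas those of C1qb were 393 and 2146. Ccr2 made up 1064 of the summed 3994 in kidney CD8+ replicate 1, so that sum leaned on it there. C1qb stood at 429 and 356 in kidney CD8+ libraries, against 33.0 and 73.5 in spleen CD8+ libraries, and at 2036 and 2256 in kidney CD4+ libraries, against 216 and 290 in spleen CD4+ libraries. It passed in CD8+ cells (2.96 ± 0.45, limma adjusted p = 0.0189) and in CD4+ cells (3.09 ± 0.45, 0.0186).

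The defining macrophage markers differed among themselves. Lyz2, the lysozyme of myeloid cells, stood at 3812 and 3159 in kidney CD4+ libraries, against 776 and 1371 in spleen CD4+ libraries, and did not pass in either lineage. Csf1r, the receptor that macrophages depend on, stood at 0.849 and 2.31 in kidney CD8+ libraries, against 0 and 3.82 in spleen CD8+ libraries, and at 65.5 and 84.3 in kidney CD4+ libraries, against 27.7 and 10.4 in spleen CD4+ libraries. Csf1r was thus near 0 in the CD8+ libraries, in which H2-Aa was at 815 or above. C1qa, the remaining defining marker, was not near 0 in kidney CD8+ libraries. It stood at 122 and 57.8 there, against 9.43 and 4.77 in spleen CD8+ libraries. In CD4+ cells C1qa stood at 247 and 317 in kidney libraries, against 61.0 and 38.8 in spleen libraries. The ratio of C1qb to H2-Aa was between 0.183 and 0.312 in the 4 CD4+ libraries and in both kidney CD8+ libraries, and 0.0405 and 0.0827 in the spleen CD8+ libraries. That of Lyz2 to H2-Aa was 0.605 and 0.760 in kidney CD8+ and 0.544 and 1.10 in spleen CD8+ libraries. In CD4+ cells the Lyz2 ratio was 0.516 and 0.438 in kidney and 0.660 and 1.31 in spleen libraries. The part of macrophage or monocyte RNA in the class II result was not tested.

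B cell markers ran opposite to the chain genes. Of 16 listed, 10 were in the table and 5 tested. Their summed level was 247 and 235 in kidney CD8+ libraries, 1014 and 913 in spleen CD8+ libraries, 201 and 221 in kidney CD4+ libraries and 484 and 419 in spleen CD4+ libraries. In the average of both lineages none of the 5 rose and 3 fell, beside 2.71% of all tested genes called higher and 0.664% lower. The 3 were Ms4a1 (CD20), Cd22 and Cd79b, a subunit of the B cell receptor. Most of the sum was Cd79b, at 176 to 247 in the 4 kidney libraries, against 292 to 931 in the 4 spleen libraries. Of the defining markers, Ms4a1 was at 0 in 3 of the 4 kidney libraries and at 5.64 in kidney CD4+ replicate 1, and Cd79a was at 0, 1.54, 0 and 25.0 in the kidney libraries. The part of B cell RNA in the class II result was not tested.

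Dendritic cell markers gave a mixed picture. Of 15 listed, 12 were in the table and 7 tested, and their sum was carried by Ccr7, which T cells also express, and Cst3, which many cells express. Zbtb46, a defining transcription factor of dendritic cells, was at 0 in both kidney and both spleen CD8+ libraries, at 4.23 and 19.8 in kidney CD4+ libraries and at 0 and 2.59 in spleen CD4+ libraries. Itgax (CD11c) ranged from 0.554 to 57.8 and was highest in kidney CD8+ replicate 2. Clec10a, a lectin of dendritic cells and macrophages, was the 1 of 7 called in the average of both lineages. There 2.71% of all tested genes were called higher and 0.664% lower. Clec10a stood at 45.8 and 16.2 in kidney CD8+ libraries, against 0.673 and 0 in spleen CD8+ libraries. In CD4+ cells it stood at 36.7 and 21.9 in kidney libraries, against 0 in both spleen libraries.

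Markers of cells that are not usual class II sources also moved with organ. The summed level of 15 proximal tubule markers was 5672 and 23511 in kidney CD8+ and 8148 and 19506 in kidney CD4+ libraries, against at most 8.87 in any spleen library. The sum of 13 neutrophil markers was at most 32.4 in any kidney library, against 3677 to 9439 in spleen libraries, and 8 erythroid genes summed to between 13.6 and 361 in kidney and between 12397 and 23537 in spleen libraries. The plasma cell marker Jchain fell in kidney in the average of both lineages (-1.96 ± 0.33, limma adjusted p = 0.0152). It was the 1 called of 4 tested plasma cell genes, beside 2.71% of all tested genes called higher and 0.664% lower. Of those 4 log2 differences, 2 were above 0 and 2 below. Mzb1, another defining marker, ranged from 0 to 72.5, and Sdc1 from 0 to 15.5. The part of any of these cells in the class II result was not tested either.

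**Figure D4:**
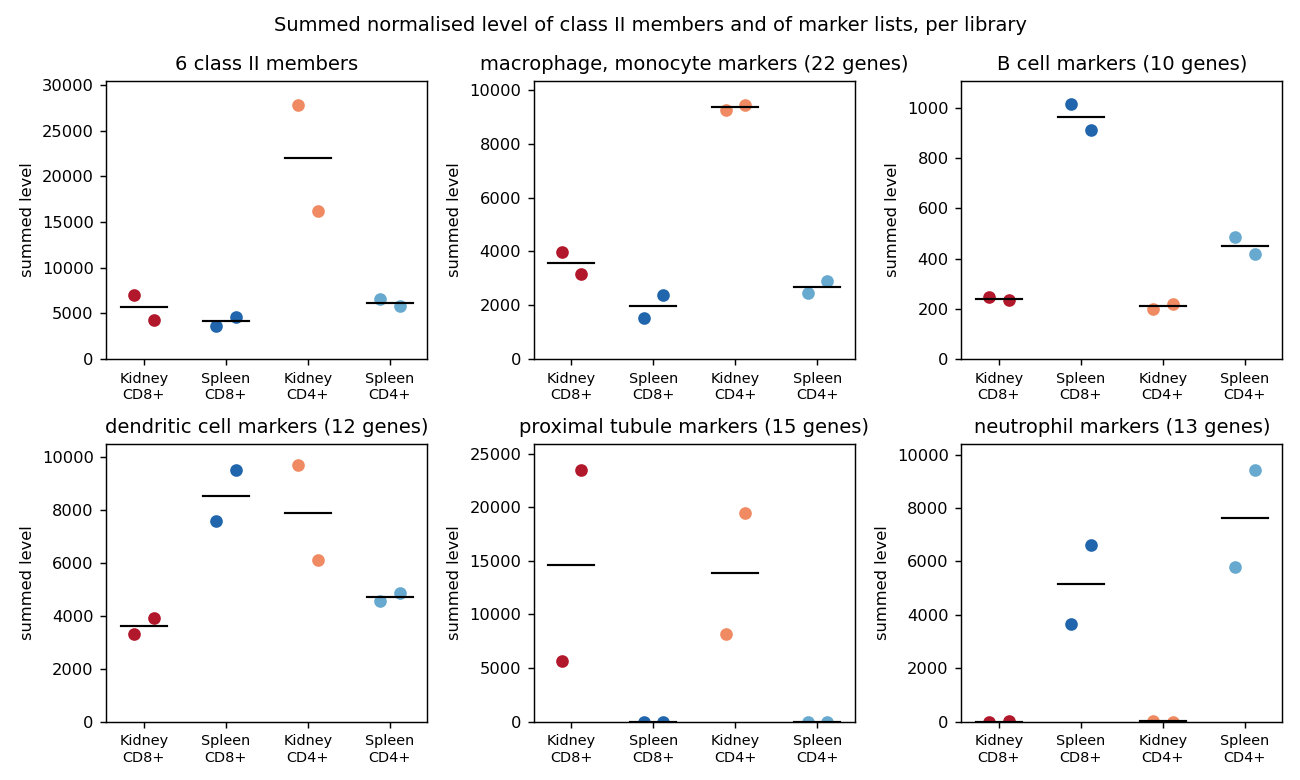
Summed normalised level (vertical axes, linear, from 0) of the 6 class II genes and of 5 lists of markers of other cells in each library, by group, with dots for libraries and a line for the group mean. The class II sum and the macrophage and monocyte sum are both highest in the kidney CD4+ libraries, whereas the B cell sum is higher in the spleen libraries of each lineage.

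Across the 8 libraries, the mean profile of the 5 tested members (log2 level, each gene centred) was followed most closely by H2-Ab1 (Pearson r = 0.973), H2-Aa (0.972) and H2-Eb1 (0.965), less by Cd74 (0.731) and least by H2-DMa (0.244). These values are descriptions, since each member is part of the mean. Among 6449 other genes with a mean level of at least 50, the 10 with the most similar pattern were Urgcp, Lyz2, Pafah1b2, H2-Ea-ps, Nr3c1, Tmed10, Tfip11, Sar1a, Unc119b and Lztfl1, with r from 0.933 down to 0.913. The 8 points fall into 4 groups of like libraries, and the coefficients are given as a description. Lyz2, of myeloid cells, and H2-Ea-ps, of the class II complex itself, were both among the 10. The profile was also restricted to the 3 chain genes, a choice made after the values were seen. Urgcp, Lyz2, H2-Ea-ps, Tfip11, Unc119b and Lztfl1 then left the 10. The genes that entered were 4930523C07Rik (0.952), C1qc (0.951), Mlf1 (0.950), Samd8 (0.938), Slamf9 (0.938) and C1qb (0.935). Tmed10, a protein of early secretory transport, was at the top (0.963).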

How the data were processed

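Per the submitters' processing notes, reads were aligned to mm9 with STAR 2.5.3 and TopHat2 2.1.0. No label or header used here names the counting tool, the annotation or the normalization. The deposited table holds a normalised signal per gene, made by the authors. In each of the 8 libraries 100% of values were whole multiples of 1 step (tolerance 1e-06), so whole reads could be recovered.

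The test was limma 3.58.1 (R 4.3.3) on log2(level + 1), with group means for 4 groups, an intensity trend and 4 residual degrees of freedom, two-sided, with Benjamini-Hochberg adjustment over the 10845 genes at a level of 10 or more in at least 2 libraries. Adjusted p below 0.05 was called. The added 1 makes the log2 fold change of a gene with a low level too small. edgeR 4.0.16 and DESeq2 1.42.0 on the recovered reads were alternatives: in the CD4+ organ comparison edgeR called 55 genes higher and 11 lower, and DESeq2 273 and 79, against 87 and 17 by limma. The fit was tested on simulated data in which every group had the same spread. That test does not cover the wider spread of the real kidney CD4+ pair.

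No member had the same reads as another gene in all libraries. Besides the 6 members, genes were named by rule: up to 4 per pathway list by smallest adjusted p in the averaged organ comparison and any called, up to 4 per marker list by level with the defining markers, and the 10 most like the members. Called genes of the macrophage, B cell and dendritic cell lists were named as well. Members and lists were chosen with earlier results of these data known. Gene positions and lengths come from the mm9 annotation and promoter sequences from RefSeq on GRCm38.p6.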

Additional observations from a re-analysis of the deposited data

How the results depend on the processing

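With 2 libraries per group, the calls depended on how the spread was estimated more than on the fold changes. Of the 5 tested members, 3 were called in CD4+ cells, 0 in CD8+ cells, 3 in the average, 0 between lineages in kidney and 0 in spleen, and 0 for the difference between lineages. When only the compared groups were fitted, 0 were called in CD4+ cells, 1 in CD8+ cells and 2 in spleen. That fit called 27 genes in all in CD4+ cells and 520 in CD8+ cells, against 104 and 168 in the main fit. With library weights the counts were 1, 1 and 2, with 31 genes called in all in CD4+ cells and 577 in CD8+ cells. DESeq2 called 1 in CD8+ cells, among 492 genes in all, and 3 between lineages in kidney, among 216. A pseudocount of 10 called 1 between lineages in kidney, among 49 genes in all. In spleen the calls over all genes ran from 2 to 702 over all alternatives. Leaving out 1 library gave 0 to 4 members in CD4+ cells, 0 to 1 in CD8+ cells, 1 to 4 in the average, 0 to 4 in kidney, 0 to 2 in spleen and 0 to 1 for the difference between lineages. The calls over all genes moved as widely in these fits, from 21 to 2361 in CD4+ cells, 22 to 755 in CD8+ cells, 154 to 2772 in the average, 3 to 1400 in kidney, 2 to 349 in spleen and 0 to 776 for the difference between lineages.

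Signs turned only when 1 library was left out, and the cause was not tested. Over such fits Cd74 ran from -0.87 (without kidney CD4+ replicate 1) to 1.71 in CD4+ cells and from -0.30 (again without that library) to 0.998 in the average. H2-DMa in the average ran from -0.29 to 0.058, the highest without kidney CD8+ replicate 2. H2-Ab1 between lineages in spleen ran from -0.58 to 0.23 and was above 0 without replicate 1 of either spleen group. For Cd74 the difference between lineages ran from -1.43 to 1.16. It was above 0 without kidney CD4+ replicate 1, kidney CD8+ replicate 2, spleen CD8+ replicate 2 or spleen CD4+ replicate 2.

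The replicate numbers are shared between groups, but nothing in the labels says that they mark a shared mouse or day, and same-numbered deviations correlated at 0.175, 0.118, -0.132 and -0.0562. With the replicate block the members called were 3 in CD4+ cells, 0 in CD8+ cells and 3 in the average, as without it. In edgeR, which differs in both scaling and model, the median of all genes in CD4+ cells was 0.03, against -0.08 with the deposited levels. That of the difference between lineages was -0.02, against 0.11. With only the scaling changed, to median-of-ratios in limma, these medians were -0.05 and 0.065.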
